A study of Mus musculus with 8 samples.

Results

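A set of 10 genes of the Eph receptor and ephrin family were followed in whole mammary tumours with and without suppression of the microRNA miR-21, namely the receptor genes Epha1, Epha2, Epha4, Epha7, Ephb2, Ephb3 and Ephb4 and the ligand genes Efna1, Efnb1 and Efnb2. They are 10 of the 22 genes of the family, and the table held 27179 genes in all, of which 14382 had enough reads to be tested. The 10 genes were chosen with their counts in these tumours already known, so their differences between the groups are given as a description of the members and not as a test of the family. The remaining 12 genes are reported beside them so that no gene of the family is left out.

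Eph receptors are the most numerous group of receptor tyrosine kinases, and their ligands, the ephrins, are themselves held on the surface of neighbouring cells. Contact between cells therefore starts a forward signal in the cell with the receptor and a reverse signal in the cell with the ephrin. EphA receptors mainly bind the lipid-anchored ephrin-A ligands and EphB receptors the transmembrane ephrin-B ligands, with EphA4 and EphB2 known to cross that line. The family is known for guiding axons and sorting cells at tissue boundaries, EphB4 and ephrin-B2 for marking veins and arteries, and EphA2 for its high level in many breast cancers.

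The tumours were grown from 4T1.13, a metastatic mouse mammary carcinoma line, after injection of 100000 cells into the mammary fat pad of female BALB/c mice aged 7 to 8 weeks. The 4 miR-21-KD (hereafter KD) tumours came from cells carrying the miArrest lentiviral vector, in which an H1 promoter drives an RNA that captures mature miR-21, and the 4 VC (vector control) tumours from cells with the same vector carrying a scrambled sequence. Both lines also carried mCherry and hygromycin resistance, and each was a pool of expanded clones rather than 1 clone. The tumours of a group share a pool, so differences between the pools and miR-21 suppression cannot be told apart. The hosts were not modified, so the vector was present in the injected cells and their progeny but not in the stroma of the tumour. The labels place the collection of both groups at day 14 and the study's methods at an earlier day, and both tie it to the time when the KD tumours began to shrink. The labels do not say whether the 4 tumours of a group came from separate experiments, so the errors given here measure the spread between these tumours.

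Between 12134849 and 13592695 reads were counted on genes in a tumour, and 3 reads, the limit that a count of 0 allows, correspond to between 0.221 and 0.244 CPM, a count scaled to the library size after correction by TMM. These limits cover counting error only. Of the 14382 genes tested with edgeR, 39.1% differed between the groups at an adjusted p under 0.05, 19.5% lower and 19.6% higher in KD tumours, and 35.1% had values that did not overlap between the groups. The epithelial keratin genes Krt8 and Krt18 were abundant in every tumour, whereas Epcam averaged 25.5 ± 17.1 CPM in VC tumours (SD, n = 4) and 97.5 ± 39.2 CPM in KD tumours (SD, n = 4). A pair of libraries stood apart from the others of their group. The sum of 7 proliferation genes was 1295 CPM in KD tumour 2 and between 432 and 617 CPM in the other 3, and it was 1248 CPM in VC tumour 4 and between 1701 and 1817 CPM in the other 3 VC tumours. Values without these tumours are given where they change a result.

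Among the 10 members, 7 passed the threshold, 4 lower (Epha1, Ephb2, Ephb4 and Efnb2) and 3 higher (Epha4, Epha7 and Efnb1) in KD tumours. The same number had values that did not overlap between the groups, and the 10 log2 fold changes had a median of -0.30, where that of the whole table was -0.01. Since these genes were picked from this comparison, the counts are not read against the 39.1% and 35.1% of all tested genes. The members did not shift together. The receptor gene that was highest in VC tumours lost most of its level, whereas 2 receptor genes that were barely expressed in VC tumours were higher in every KD tumour. Epha7, 1 of these 2 and of the 3 genes called higher, passed the filter on low counts through its KD tumours. Its low VC level and its direction therefore came together.

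**Figure D1:**
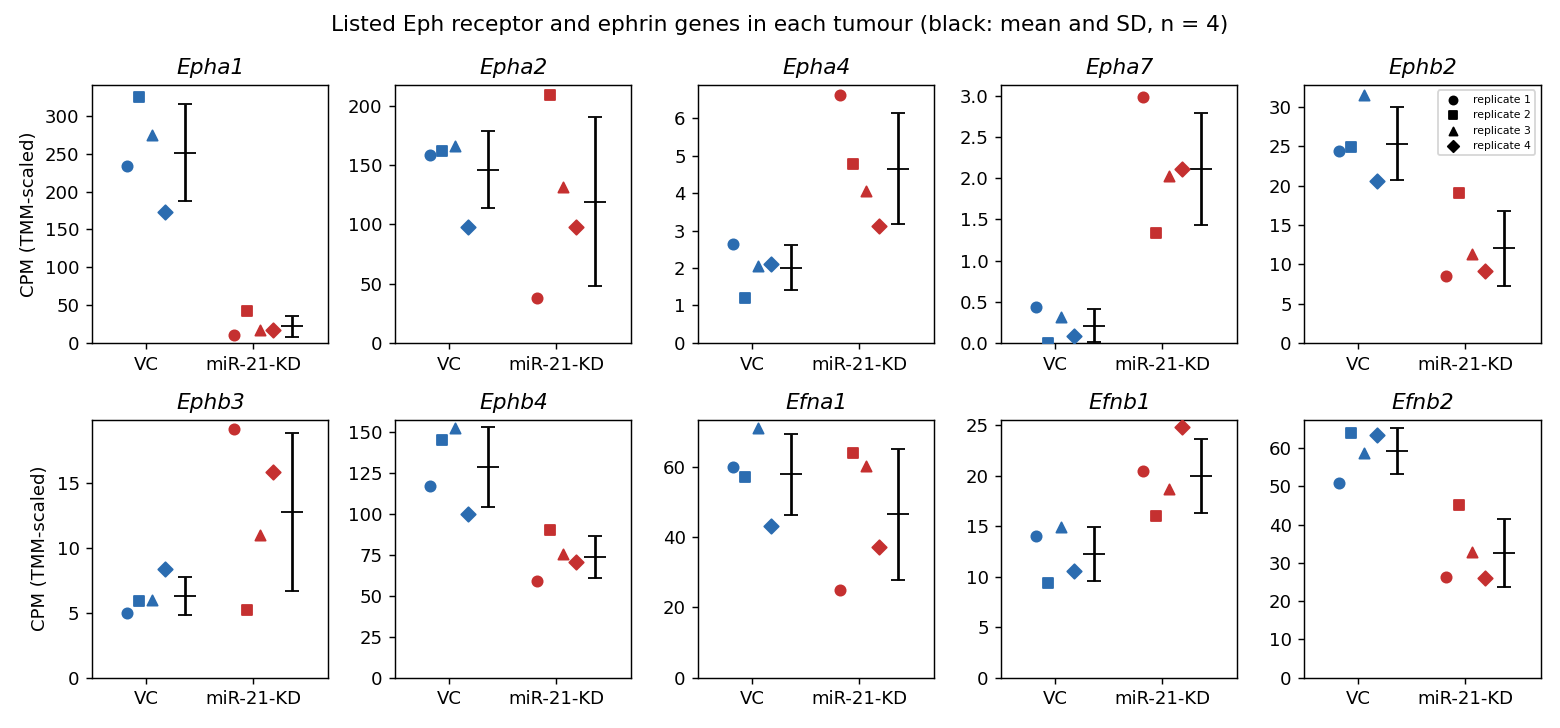
Level of each of the 10 listed genes in each tumour, in CPM scaled by TMM on a linear axis from 0, for 4 VC tumours (blue) and 4 KD tumours (red), with marker shapes for the replicate numbers and black bars for the mean and SD. The Epha1 points of the groups are far apart, with at least 173 CPM in VC tumours and at most 42.3 CPM in KD tumours, whereas the Epha2 and Efna1 points overlap.

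Epha1, which encodes an epithelial Eph receptor that binds ephrin-A1, had the largest difference of the 10. It measured 234, 325, 275 and 173 CPM in VC tumours 1 to 4. It measured 10.97, 42.3, 17.7 and 17.0 CPM in KD tumours 1 to 4. Every VC tumour lay above every KD tumour, and the highest KD value, in tumour 2, was still far below the lowest VC value, in tumour 4. The VC mean of 252 ± 64.4 CPM (SD, n = 4) was 11.4-fold that of the KD tumours, with a log2 fold change of -3.51 (SE 0.42). Without KD tumour 2 the log2 fold change was -4.05. The summed level of 9 epithelial marker genes was 1302 to 2262 CPM in VC and 902 to 2013 CPM in KD tumours, but its members moved in opposite directions. Krt18 was lower in KD tumours, Krt8 had a log2 fold change of -0.88 (SE 0.37) and did not pass the threshold, and the other 7 genes were higher.

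The Epha1 gene lies at chr6:42358487-42373314 on the minus strand (mm10, the same sequence as GRCm38), and its end overlaps the zyxin gene Zyx on the opposite strand over 1727 bases. Whether reads were counted by strand is not stated in the sources used here, and without strand reads from the shared stretch could not be told apart. Zyx averaged 530 ± 67.1 CPM in VC and 412 ± 55.2 CPM in KD tumours (SD, n = 4), with overlapping values and an adjusted p of 0.06 by edgeR. The sequence around a listed start of Epha1, 250 bases before and 50 after, is shown because this gene carries the largest difference. The corresponding sequence of Epha7 is shown with it. That gene had the highest log2 fold change of the members but few reads in VC tumours. Both starts lie inside the annotated spans of their genes, not at the edge. Both sequences are from RefSeq on GRCm38.p6, and capitals mark the GC box GGGCGG and the CCAAT box CCAAT on either strand. The Epha1 window is at chr6:42373219-42373518 on the minus strand and the Epha7 window at chr4:28812895-28813194 on the plus strand, the latter being 1 of 2 listed starts of that gene.
Epha1: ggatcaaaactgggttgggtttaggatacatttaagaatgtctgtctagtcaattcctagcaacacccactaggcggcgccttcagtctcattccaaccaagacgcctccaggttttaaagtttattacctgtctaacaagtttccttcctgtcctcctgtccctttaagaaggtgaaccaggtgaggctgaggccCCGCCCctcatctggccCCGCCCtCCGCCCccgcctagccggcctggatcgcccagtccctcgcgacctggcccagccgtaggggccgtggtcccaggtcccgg
Epha7: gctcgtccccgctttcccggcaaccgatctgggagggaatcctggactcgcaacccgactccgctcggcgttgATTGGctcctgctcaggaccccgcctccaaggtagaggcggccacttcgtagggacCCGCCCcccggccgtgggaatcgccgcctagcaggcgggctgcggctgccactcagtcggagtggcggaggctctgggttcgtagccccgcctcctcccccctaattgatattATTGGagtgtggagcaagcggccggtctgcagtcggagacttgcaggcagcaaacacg

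The Epha1 window held 3 GC boxes and no CCAAT box, and the Epha7 window held both motifs. Among the 10 members, 8 had a GC box and 6 a CCAAT box in at least 1 such window, and 1 (Efnb2) had a TATA box (TATAAA). Of 32851 promoter windows of the same length in the genome, 35.7% held a GC box, 37.4% a CCAAT box and 13.6% a TATA box. The E-box CACGTG and the AP-1 motif TGANTCA were in none of the members' windows, and in 7.15% and 7.81% of all windows. The GC content of the members' 12 windows ranged from 54.7% to 72.3%, above the 52.7% median of all windows, and genes that were higher and genes that were lower in KD tumours did not separate by these motifs. Boxes of this kind are descriptions of letters in a window, and other sequence was not searched.

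Epha2 encodes the receptor that is best known from breast and other carcinomas. It measured 159, 161, 166 and 97.4 CPM in VC tumours 1 to 4. It measured 37.8, 209, 131 and 97.9 CPM in KD tumours 1 to 4. The highest and the lowest of the 8 values were both in KD tumours, and the groups overlapped. The log2 fold change was -0.30 (SE 0.43), and the difference was smaller than the spread between KD tumours, whose highest value was 5.53 times the lowest. Without KD tumour 1 it was 0.0012, and without KD tumour 2 it was -0.72. So the difference of Epha2 lay within its spread, while Epha1 differed by more than its spread in the same tumours.

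Epha4, a receptor that binds ephrins of both classes and is known from axon guidance, was at a low level. It measured 2.65, 1.20, 2.05 and 2.12 CPM in VC tumours 1 to 4. It measured 6.62, 4.79, 4.05 and 3.13 CPM in KD tumours 1 to 4. Each KD tumour was above each VC tumour. The level was 2.32-fold higher on average, with a log2 fold change of 1.21 (SE 0.32), and the read counts behind it were 15 to 36 in VC and 40 to 82 in KD tumours. Without VC tumour 3 the estimate was the same to 2 decimals but its adjusted p by edgeR was 0.05330, so it narrowly missed the threshold.

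Epha4 was also the one gene of the 22 whose 3′ untranslated region held a full match to the seed of miR-21, so both sequences are shown. MicroRNAs pair with their targets mainly through the seed, bases 2 to 8 of the mature strand. The mature mmu-miR-21a-5p of RefSeq, at chr11:86584120-86584141 on the minus strand of GRCm38.p6, has its seed in capitals, and the stretch of Epha4 has the matching 8 bases in capitals.
miR-21a-5p: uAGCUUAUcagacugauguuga
Epha4: actgtggccatttatATAAGCTA

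The Epha4 match is at chr1:77368256-77368263 on the minus strand, in exon 18 of 18 of transcript Epha4-201, at bases 2232 to 2239 of a 3′ untranslated region of 3310 bases. The letters searched were ATAAGCT and, with the added adenine, ATAAGCTA, on the transcript strand of the longest annotated 3′ untranslated region of each gene. Of 13217 tested genes with such a region, 7.72% held the shorter and 2.26% the longer match. Of the 2081 with a region of 2500 to 4500 bases, 5.24% held the longer match. Of the 299 genes with the longer match, 22.1% were higher and 17.7% lower in KD tumours, against 19.6% and 19.5% of all tested genes. The match is a description of the annotated sequence, and whether miR-21 pairs with it was not measured. No match was found in the 3496 bases of Epha7 or in the longest region of the family, the 7783 bases of Ephb2.

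Epha7, another receptor of the A class known from the developing nervous system, was close to the limit of detection in VC tumours. It had 6, 0, 4 and 1 reads in VC tumours 1 to 4. It had 37, 17, 25 and 27 reads in KD tumours 1 to 4. The mean was 0.21 ± 0.20 CPM in VC and 2.11 ± 0.68 CPM in KD tumours (SD, n = 4), and the log2 fold change was 3.25 (SE 0.62). Without VC tumour 1 it was 3.89, and without VC tumour 2 it was 2.85. The groups did not overlap, and the gene passed the filter on low counts through its KD tumours, so a VC value near 0 and a difference in this direction came together. The sample with 0 reads allows a level of up to 0.239 CPM.

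Of the EphB receptor genes, Ephb2 and Ephb4 were lower in KD tumours. Ephb2, which encodes a receptor of ephrin-B ligands that is active in the intestine and in neurons, measured 24.4, 24.9, 31.6 and 20.5 CPM in VC tumours 1 to 4. It measured 8.55, 19.0, 11.3 and 9.14 CPM in KD tumours 1 to 4. The lowest VC value and the highest KD value, in tumour 2, were 20.5 and 19.0 CPM, so the groups were separate by a narrow gap. The log2 fold change was -1.08 (SE 0.26), and -1.39 without KD tumour 2.

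Ephb4, the ephrin-B2 receptor of venous endothelium, was evenly spread within both groups, the highest value being 1.52 times the lowest in each. It measured 117, 145, 152 and 99.8 CPM in VC tumours 1 to 4. It measured 59.1, 90.1, 75.2 and 70.6 CPM in KD tumours 1 to 4. All 4 KD tumours were lower than the lowest VC tumour, number 4. The mean was 1.74-fold higher in VC tumours, with a log2 fold change of -0.80 (SE 0.17), and the log2 fold change stayed between -0.92 and -0.71 whichever tumour was left out.

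Ephb3, an EphB receptor that shares ligands with Ephb2, measured 4.94, 5.90, 5.98 and 8.39 CPM in VC tumours 1 to 4. It measured 19.1, 5.18, 10.9 and 15.8 CPM in KD tumours 1 to 4. The other 3 KD tumours lay above every VC tumour, and tumour 2 lay among the VC tumours. The log2 fold change was 1.02 (SE 0.37) and did not pass the threshold (adjusted p = 0.06 by edgeR). Without KD tumour 2 it was 1.27 (SE 0.25, adjusted p = 0.005599 by edgeR), and with DESeq2 on the 8 tumours the adjusted p was 0.02063.

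Efna1 encodes ephrin-A1, a lipid-anchored ligand of EphA1 and EphA2. It measured 59.8, 57.2, 71.0 and 43.2 CPM in VC tumours 1 to 4. It measured 24.9, 63.8, 60.1 and 37.0 CPM in KD tumours 1 to 4. The groups overlapped, and the log2 fold change of -0.31 (SE 0.29) was about the size of its error. It was -0.11 without KD tumour 1 and -0.51 without KD tumour 2, and passed the threshold in neither case. The ligand therefore had no difference beyond its spread in tumours where Epha1 was 11.4-fold lower.

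The ephrin-B ligand genes moved in opposite directions. Efnb1, which encodes a transmembrane ligand of EphB receptors, measured 14.1, 9.41, 14.96 and 10.6 CPM in VC tumours 1 to 4. It measured 20.4, 16.0, 18.7 and 24.8 CPM in KD tumours 1 to 4. The lowest KD tumour, number 2, was just above the highest VC tumour, number 3. The log2 fold change was 0.70 (SE 0.19). It was 0.59 without VC tumour 2 and 0.58 without KD tumour 4, where the adjusted p by edgeR was 0.06034 and 0.06391 and fewer genes of the whole table passed the threshold as well.

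Efnb2 encodes ephrin-B2, the ligand of EphB4 and EphB2 that marks arterial endothelium. It measured 50.9, 64.0, 58.6 and 63.5 CPM in VC tumours 1 to 4. It measured 26.3, 45.1, 32.9 and 26.1 CPM in KD tumours 1 to 4. The VC tumours were close together, with a highest value 1.26 times the lowest, and none of the KD tumours reached them. The log2 fold change was -0.86 (SE 0.18), close to that of its receptor gene Ephb4.

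**Figure D2:**
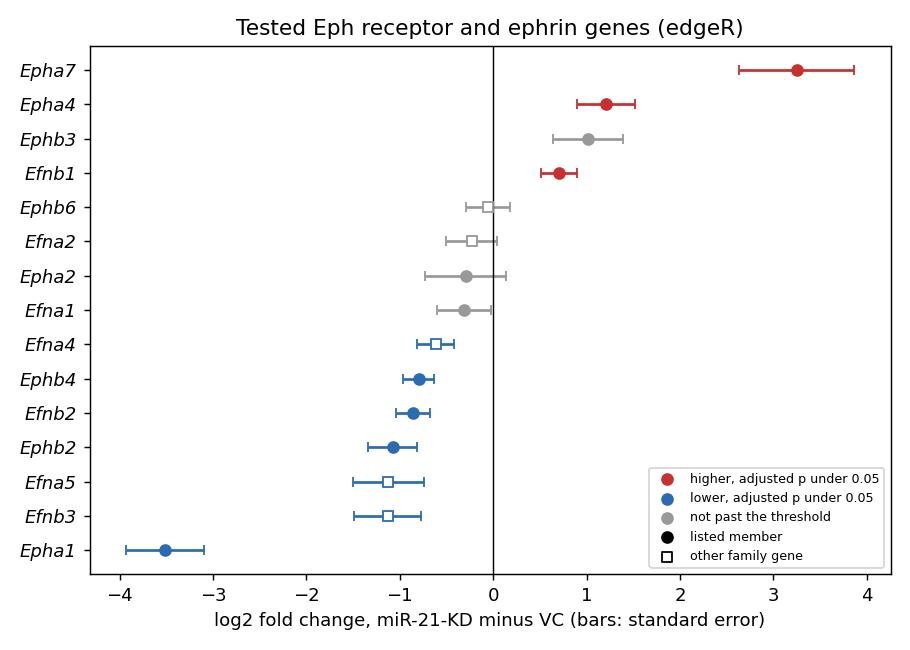
Log2 fold change (KD minus VC) with its standard error for the 15 family genes that could be tested, with filled circles for listed members, open squares for other genes of the family, and colour for the side of the threshold of an adjusted p of 0.05 by edgeR. Epha1 at -3.51 and Epha7 at 3.25 stand at the ends, and 7 genes were lower and 3 higher.

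Of the 12 genes outside the list, 5 had enough reads to be tested and 3 of these were lower in KD tumours, Efna4, Efna5 and Efnb3. Efna5, an ephrin-A ligand known from axon guidance, measured 101, 125, 122 and 62.6 CPM in VC tumours 1 to 4. It measured 21.8, 80.1, 52.8 and 33.7 CPM in KD tumours 1 to 4. The value of KD tumour 2 was higher than that of VC tumour 4, so the groups overlapped, and the log2 fold change was -1.12 (SE 0.38, adjusted p = 0.0464 by edgeR). Efna4, a ligand gene near Efna1 on chromosome 3, had a log2 fold change of -0.62 (SE 0.20, adjusted p = 0.04 by edgeR), and Efnb3, the third ephrin-B gene, of -1.13 (SE 0.36, adjusted p = 0.04 by edgeR). These calls were not firm, since leaving out VC tumour 2, VC tumour 3, KD tumour 1, KD tumour 3 or KD tumour 4 removed all 3 of them. Fewer genes of the whole table passed in those fits as well. Whichever tumour was left out, the log2 fold change of Efna4 lay between -0.71 and -0.51. That of Efna5 lay between -1.51 and -0.88, and that of Efnb3 between -1.37 and -0.91. Without VC tumour 1 the call of Efna4 was left, and without VC tumour 4 that of Efna5. Without KD tumour 4 Epha3, too low to be tested over the 8 tumours, could be tested and was higher (log2 fold change 2.28, SE 0.64, adjusted p = 0.0423 by edgeR). It did not pass in the other fits that tested it (adjusted p between 0.05205 and 0.1148 by edgeR). Those were without VC tumour 1, 2, 3 or 4, or without a filter on low counts. Where the filter was used, Epha3 passed it through its KD tumours, since no VC tumour had more than 8 reads.

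Ephb6, which encodes a receptor without kinase activity, had 9.23 ± 2.66 CPM in VC and 8.87 ± 1.58 CPM in KD tumours (SD, n = 4), with a log2 fold change of -0.06 (SE 0.23, adjusted p = 0.86 by edgeR). It lies on the same chromosome as Epha1, 738 kb away. Efna2 had a log2 fold change of -0.23 (SE 0.27, adjusted p = 0.51 by edgeR). The other 7 genes of the family were too low to be tested. Epha5 and Epha6 had no reads in any of the 8 tumours, which allows up to 0.244 CPM in the shallowest library, and Epha8 and Epha10 had at most 4 reads. Epha3, a receptor found in stromal cells of several tissues, had 8, 5, 5 and 7 reads in VC tumours 1 to 4. It had 63, 13, 14 and 8 reads in KD tumours 1 to 4, so that 1 tumour held most of its KD reads. Ephb1 had 4 to 12 reads in VC and 6 to 19 in KD tumours, and Efna3 had 1 to 4 and 3 to 16.

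Levels between genes were compared per kilobase of exon. In VC tumours the order was led by Epha1 at 74.4 ± 19.0 CPM per kilobase, followed by Epha2 at 37.3, Efna1 at 31.6, Ephb4 at 29.4 and Efna5 at 25.4 (SD and means, n = 4). The values of Epha1 did not overlap those of Epha2, whereas Epha2, Efna1, Ephb4 and Efna5 overlapped each with its neighbour in the order. In KD tumours Epha2 led at 30.4 CPM per kilobase, followed by Efna1 at 25.4, Ephb4 at 16.9, Efna5 at 11.7, Efnb2 at 6.80 and Epha1 at 6.50. Each of these overlapped its neighbour, and Epha1 had gone from rank 1 to rank 6 of 22.

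Summed over the 14 receptor genes, the level was 142, 177, 166 and 105 CPM per kilobase in VC tumours 1 to 4. It was 35.1, 92.4, 63.2 and 53.0 CPM per kilobase in KD tumours 1 to 4. Epha1 made up 50.2% ± 2.77 of that sum in VC tumours and 10.1% ± 2.33 in KD tumours (SD, n = 4), and its share was between 48.7% and 54.3% in each VC tumour although the sums differed. The share of Epha2 was 25.3% ± 2.41 and 46.3% ± 13.3 (SD, n = 4) and that of Ephb4 20.1% ± 1.52 and 29.6% ± 6.81 (SD, n = 4), although the Ephb4 level itself was lower in KD tumours. Epha1 was thus the leading receptor gene in each VC tumour, and Epha2 in 3 of the 4 KD tumours. KD tumour 1 was the exception, since Ephb4 held 38.5% of its receptor sum and Epha2 27.5%. The 8 ephrin genes summed to 82.0 ± 11.7 CPM per kilobase in VC and 56.1 ± 17.7 in KD tumours (SD, n = 4), with overlapping values. Within that sum Efnb1 took 4.62% ± 0.92 in VC and 12.2% ± 5.37 in KD tumours (SD, n = 4), and the groups did not overlap.

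**Figure D3:**
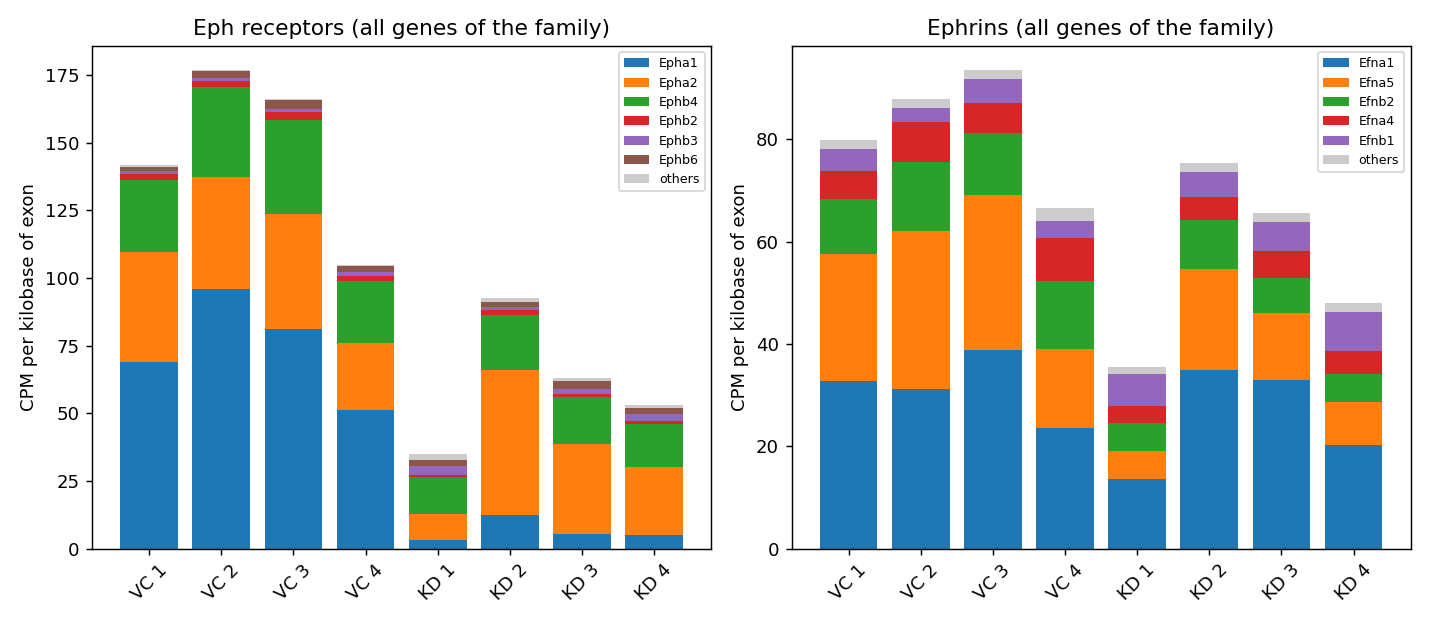
Stacked levels of the 14 Eph receptor genes (left) and the 8 ephrin genes (right) in each tumour, in CPM per kilobase of exon on a linear axis from 0, with the lowest genes summed as others. The blue Epha1 block holds 48.7% to 54.3% of the receptor sum in VC tumours and 8.26% to 13.5% in KD tumours.

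Eph signals pass through adaptors, kinases, exchange factors and GTPase-activating proteins to the actin cytoskeleton, and proteases cut receptors and ephrins from the surface. Of 62 genes listed for these partners, 59 could be tested, and 15 were lower and 14 higher in KD tumours, 49.2% of those tested against 39.1% of the whole table. Fewer were lower, 8, without VC tumour 2 or 3 or KD tumour 1, 3 or 4, and fewer were higher in the same fits, 9 to 11. The whole table also had fewer calls in these fits, 2936 to 3837 against 5626 with all tumours. The 59 had a median log2 fold change of -0.01, as did the whole table. The 14 exchange factors and GTPase-activating proteins included 5 lower and 3 higher, the 12 kinases 3 lower and 2 higher, and the 5 proteases 1 lower and 2 higher. No role moved in 1 direction throughout.

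Chn1, the Rac GTPase-activating protein alpha-chimaerin that acts below EphA4 in axon guidance, had the largest change of the partners. It measured 16.4, 28.7, 17.1 and 21.8 CPM in VC tumours 1 to 4. It measured 3.63, 4.63, 3.32 and 3.13 CPM in KD tumours 1 to 4. The groups were far apart, with a log2 fold change of -2.51 (SE 0.23, adjusted p = 0.00501 by edgeR), while the receptor gene Epha4 was higher in the same tumours. Its paralogue Chn2 went the other way, from 3.15 ± 0.49 to 6.07 ± 0.76 CPM (SD, n = 4), with a log2 fold change of 0.95 (SE 0.19, adjusted p = 0.00935 by edgeR).

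The other 4 partner genes with the smallest adjusted p among those that fell were Shc1, an adaptor, Ryk, a receptor-like pseudokinase, Dvl2, a dishevelled protein of ephrin-B reverse signalling, and Sipa1l1, a Rap GTPase-activating protein. Their log2 fold changes were -0.66 (SE 0.09), -0.55 (SE 0.09), -0.70 (SE 0.15) and -0.75 (SE 0.17), with adjusted p between 0.00501 and 0.0119 by edgeR. Among those that rose were Limk1, a kinase of cofilin, at 0.79 (SE 0.12), Fyn, a Src family kinase, at 0.70 (SE 0.13), and Anks1, an adaptor of EphA receptors, at 0.47 (SE 0.10), with adjusted p between 0.00571 and 0.00998 by edgeR.

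Mmp9, a matrix protease that can cut EphB2, measured 658, 539, 593 and 700 CPM in VC tumours 1 to 4. It measured 2230, 1224, 2703 and 2290 CPM in KD tumours 1 to 4. It was higher in every KD tumour, with a log2 fold change of 1.76 (SE 0.23, adjusted p = 0.00501 by edgeR). Adam10, the protease that cuts ephrin-A ligands and several receptors, measured 389, 367, 344 and 171 CPM in VC and 203, 247, 267 and 183 CPM in KD tumours 1 to 4. VC tumour 4 was the lowest of the 8. The log2 fold change was -0.50 (SE 0.25, adjusted p = 0.14 by edgeR), and -0.71 (adjusted p = 0.01190) without VC tumour 4.

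**Figure D4:**
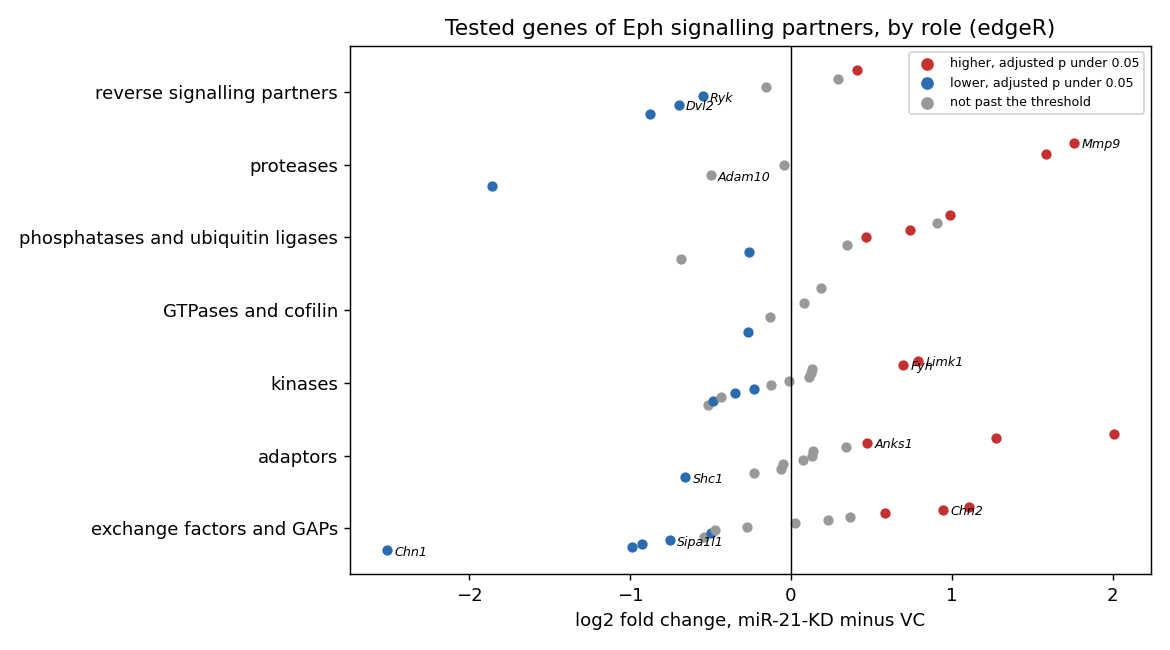
Log2 fold change (KD minus VC) of the 59 tested partner genes of Eph signalling, 1 point per gene, arranged by role and coloured by the side of the threshold of an adjusted p of 0.05 by edgeR. Points lie on both sides of 0 in each role, from Chn1 at -2.51 to a highest value of 2.01.

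These are whole tumours, so fewer cells of a type and less RNA per cell cannot be told apart in any of these values. The summed level of 11 endothelial genes was between 719 and 1030 CPM in VC and between 867 and 1141 CPM in KD tumours, and of these genes 1 was higher (Tek) and 1 lower (Eng). Pecam1 and Cdh5 had log2 fold changes of 0.37 (SE 0.18, adjusted p = 0.12 by edgeR) and -0.02 (SE 0.24, adjusted p = 0.96 by edgeR). The log2 fold changes of the 11 ranged from -0.69 to 1.10 with a median of -0.02, Tek being the highest at 1.10 (SE 0.35, adjusted p = 0.0378 by edgeR) and Eng measuring -0.46 (SE 0.09, adjusted p = 0.00931 by edgeR). The part of endothelial cells in the Ephb4 and Efnb2 values was not tested. Of 5 tested arterial genes, Hey1, Gja4 and Gja5 were higher and Dll4, a Notch ligand of arteries, was lower like Efnb2, with a log2 fold change of -0.76 (adjusted p = 0.04 by edgeR).

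Other marker sums did differ. Sums of fibroblast, leukocyte and adipocyte genes did not overlap, at 3000 to 7961 against 10360 to 23160 CPM for 7 fibroblast genes, 846 to 1559 against 1633 to 2967 CPM for 10 leukocyte genes, and 85.1 to 319 against 428 to 1123 CPM for 5 adipocyte genes, lower in VC tumours each time. The sum of 5 pericyte genes did not overlap either, at 129 to 173 CPM in VC and 180 to 337 CPM in KD tumours. Of 9 epithelial genes 7 were higher and Krt18 was lower, of 6 basal epithelial genes 4 were higher, and of 7 proliferation genes 6 were lower. Col1a1, a fibroblast collagen gene, had a log2 fold change of 1.48 (SE 0.34, adjusted p = 0.0134 by edgeR) and Ptprc, the leukocyte gene of CD45, one of 0.99 (SE 0.25, adjusted p = 0.0180 by edgeR). In the other lists no gene was called lower, and 6 of 7 fibroblast, 6 of 10 leukocyte, 5 of 5 adipocyte, 2 of 5 pericyte and 1 of 4 tested Schwann cell genes were higher, and the 1 testable skeletal muscle gene did not pass. None of these lists held a gene that was at 0 in every tumour. Their part in the differences of Eph and ephrin genes was not tested. Within the KD group the tumours that stood apart in these sums also stood apart in the members. Tumour 2, with the highest proliferation sum and the lowest fibroblast and leukocyte sums of that group, was the highest of its group for 6 of the 10 members (Epha1, Epha2, Ephb2, Ephb4, Efna1 and Efnb2) and the lowest for 3 (Epha7, Ephb3 and Efnb1). Tumour 1, with the highest fibroblast and leukocyte sums, was the lowest for 5 and the highest for 3.

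**Figure D5:**
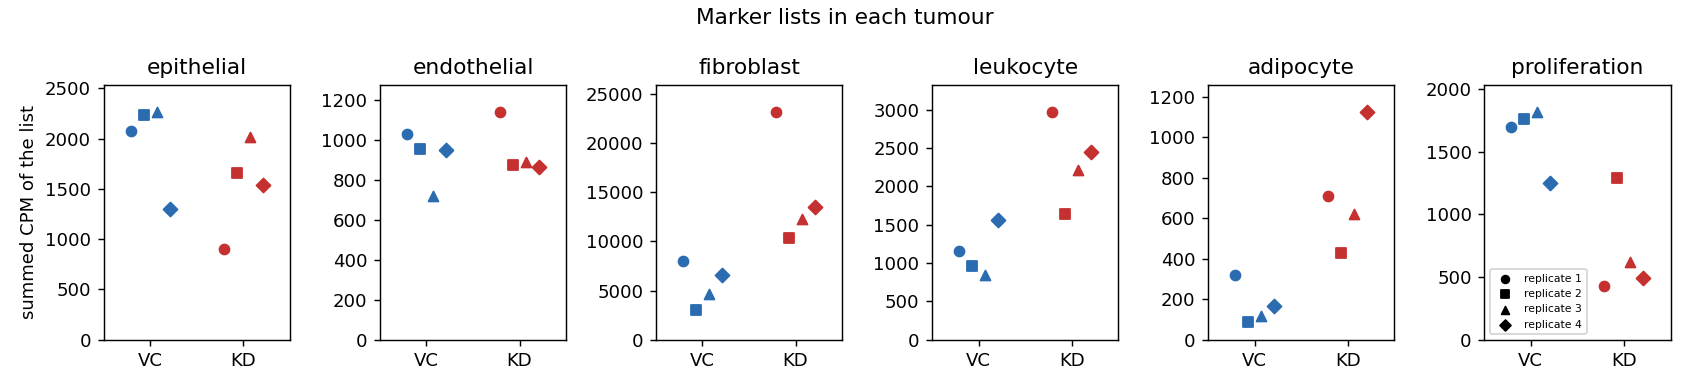
Summed CPM of 6 marker gene lists in each tumour, on linear axes from 0, for VC (blue) and KD (red) tumours with marker shapes for the replicate numbers. The fibroblast, leukocyte and adipocyte sums are higher in each KD tumour than in any VC tumour, the epithelial and endothelial sums overlap, and KD tumour 2 (square) has a proliferation sum of 1295 CPM, within the range of the VC tumours.

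The tested genes whose log2 CPM was most like that of Epha1 over the 8 tumours were Pcnx4, Ppa2, Anxa5, Cpsf3 and Pbx3, with Pearson correlations between 0.995 and 0.998. The 8 tumours fall into 2 groups that differ in Epha1, and these 5 genes share that division. After the group means were removed the 5 closest were Nucks1, Wdr70, Plxnb1, Rpa1 and Cs, with correlations between 0.988 and 0.991. Each list holds only the 5 highest of all tested genes, so high correlations follow from the choice. How the first 5 genes ranked by the second measure is not given. The difference of these genes between the groups was smaller than that of Epha1, with log2 fold changes from -1.35 (Pbx3) to -0.31 (Cs).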

How the data were processed

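RNA from 8 whole tumours (4 VC and 4 miR-21-KD) was sequenced, and the authors deposited raw read counts per gene under Entrez identifiers, without normalization. Their processing notes name mm10, Subread, featureCounts, edgeR and limma without versions. Whether counting used strand is not given in the sources used here. Every column of the table was used. Symbols matched 25275 of 27179 identifiers.

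Counts were analysed with edgeR 4.0.16 (R 4.3.3). The filterByExpr filter (minimum count 10, minimum total 15) left 14382 genes, libraries were scaled by TMM, and the robust quasi-likelihood test was adjusted by Benjamini-Hochberg over those genes (threshold 0.05). CPM is the count scaled to the library size times its TMM factor, and standard errors come from the estimate and its F statistic. Log2 CPM used a prior count of 2. The scripts were tested on simulated counts. Exon lengths, strands, 3′ untranslated regions and the position of the Epha4 match are from GENCODE M21 (GRCm38). Gene positions are from RefSeq, as are promoters and miRNAs (GRCm38.p6).

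The members, the gene lists and the rule for named genes were chosen with earlier results of these data known. The rule names the 22 family genes, the 5 partner genes of smallest adjusted p in each direction with Chn1 and Adam10, the markers Epcam, Krt8, Pecam1, Cdh5, Col1a1 and Ptprc, and the 5 genes most correlated with Epha1 by each of 2 measures (with and without the group means). Other genes named (Zyx, Fam131b, Casp2, Gstk1, Tcaf2, Tek, Eng, Krt18, Hey1, Gja4, Gja5, Dll4) were picked after their values were seen. Alternatives were DESeq2 1.42.0, limma-voom (limma 3.58.1), other scalings and filters, a replicate block and each tumour left out. The labels number tumours 1 to 4 in both groups. After removal of group means, same-numbered tumours correlated at 0.272, 0.421, 0.175 and 0.376, against a mean of -0.105 for the 12 other pairs, so the numbers were treated as a possible pairing on this hint from the data alone. No pair of tumours in a group was alike within sampling noise.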

Additional observations from a re-analysis of the deposited data

Results flagged for a closer look

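In 30 groups of 4 tumours, namely the VC and the miR-21-KD values of the 15 tested family genes, 1 tumour lay far from the other 3 of its group. This was Epha2 in VC tumour 4, at 97.4 CPM, where the other VC tumours measured 159, 161 and 166 CPM. Its gap to the nearest tumour was 0.887 of the range of the group, above the 95% critical value of Dixon's test for 4 values. Chance alone marks about 1 in 20 groups, so 1 in 30 is not more than it gives. VC tumour 4 was also the lowest VC tumour for 5 of the 10 members.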

How the results depend on the processing

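The 4 listed genes called lower were 4 under each alternative, and those called higher, 3 as reported, were 2 to 4, with 2 where at least 10 counts were asked of every tumour, since Epha7 was then not tested. With each tumour left out in turn, the genes called in the whole table ranged from 2936 to 6840 (5626 with all tumours), the listed genes called higher from 2 to 4, the other family genes called from 0 to 3, the partner genes called lower from 8 to 17 and higher from 9 to 15. The table count was 2936 without VC tumour 3, 3290 without VC tumour 2, 3366 without miR-21-KD tumour 4 and 3750 without miR-21-KD tumour 3. It was 6840 without miR-21-KD tumour 2. The cause was not tested. With tumours left out, log2 fold changes near 0 changed sign for Ephb6 (-0.2149 to 0.0991, positive without VC tumour 3), Efna2 (-0.3985 to 0.009, positive without VC tumour 4) and Epha2 (-0.7196 to 0.0012, positive without miR-21-KD tumour 1). Of 388 values of named genes under an alternative, 359 kept direction and side of the threshold. Efna5 also lost its call without a filter on low counts (adjusted p = 0.06961 by edgeR). With the replicate block, the listed genes kept 4 lower and 3 higher and 6485 genes of the table were called, and the block changed no call of the 15 tested family genes or of the 11 partner genes named. Under other scalings the median of all genes lay between -0.04 and 0.03. Depth limits the genes with few reads: Epha7 in VC tumours and the 7 untested family genes.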

Other observations

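On chromosome 6 the level of Epha1 was set beside those of the tested genes within 250 kb, chosen after the Epha1 values were seen. Of 5 such genes, Fam131b, which ends 33.8 kb from Epha1, fell from 21.1 ± 3.65 to 4.66 ± 1.94 CPM (SD, n = 4), with a log2 fold change of -2.18 (SE 0.27, adjusted p = 0.00501 by edgeR). Zyx, which lies between them and overlaps Epha1, had a log2 fold change of -0.36 (SE 0.13, adjusted p = 0.06 by edgeR). Casp2, beyond Fam131b, had a log2 fold change of -0.26 (SE 0.10, adjusted p = 0.06 by edgeR), and Gstk1 and Tcaf2 were higher by 1.35 (SE 0.35) and 2.10 (SE 0.46).

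The ephrin-A genes Efna1, Efna3 and Efna4 lie within 66.3 kb on chromosome 3. Efna1 had a log2 fold change of -0.31, Efna4 one of -0.62, and Efna3 had 1 to 4 reads in VC and 3 to 16 reads in miR-21-KD tumours.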
